A study of Neurospora crassa with 8 samples.

Results

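The transcripts of 7 enzymes of ergosterol synthesis were followed through the transcriptome of the filamentous fungus Neurospora crassa. They were taken by locus for their place in the pathway and make up 7 of the 9730 genes counted. All 7 were abundant enough to be tested among 8118 genes. Of these steps 4 depend on iron: the sterol C14 demethylase erg-11 (NCU02624), the C4 methyl oxidase (NCU06402), the C5 desaturase (NCU06207) and the C22 desaturase (NCU05278). The other 3 do not: the C14 reductase erg-3 (NCU08762), the C24 methyltransferase erg-4 (NCU03006) and the C8 isomerase erg-1 (NCU04156). Poly(A) RNA came from shaken cultures of the ve-1 mutant and of wild type, each grown for 48 hours at 32 degrees C in minimal medium with 1.5% sucrose. The medium was either made without iron in acid-washed glassware or was the standard one, with 2 cultures in each of the 4 groups. VE-1 is a velvet-family regulator of development and secondary metabolism, and the labels do not say how the gene was disrupted.

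Ergosterol is the main membrane sterol of fungi and the counterpart of cholesterol in animals. The late pathway removes methyl groups from a lanosterol-type precursor, moves and adds double bonds in the rings and methylates the side chain. Erg-11, the target of azole antifungals, and the C22 desaturase are cytochrome P450 enzymes with a haem iron, while the C4 oxidase and the C5 desaturase belong to a family of membrane enzymes with a pair of non-haem iron atoms. The C14 reductase, the C8 isomerase and the methyltransferase need no iron. In yeast and other fungi, genes of this pathway are known to be induced when sterols or oxygen run short.

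Levels are given as CPM, counts scaled to library size with TMM factors, and tests are edgeR quasi-likelihood tests with Benjamini-Hochberg adjustment over all 8118 genes. Below, "called" means that this adjusted p was under 0.05. Total counts ran from 6654585 to 10192729 per library. The ve-1 transcript had 15 to 80 counts in the mutant libraries and 1077 to 2977 in those of wild type. The siderophore repressor gene sre, whose level marks the medium, was at 7.28 to 13.1 CPM in the iron-free libraries and 117 to 191 CPM in the standard ones. The samples are labelled mycelia, but conidial markers were detected in every group. Of the 5 examined, eas, con-6, con-8 and con-10 had reads in every library. Con-13 had 3 and 0 counts in wild-type iron-free and 333 and 0 in ve-1 iron-free libraries. The summed level of the 5 was 3099 to 53070 CPM in ve-1 iron-free and 104105 to 118145 in ve-1 standard libraries. It was 2850 to 6587 in wild-type iron-free and 15615 to 58433 in wild-type standard libraries. In the ve-1 iron-free library at 53070 CPM, eas alone had 51526. Without iron 4 of the 5 fell in the averaged effect (con-13 was not called). Of all 8118 tested genes 2265 were called in that effect, 1002 of them higher. In ve-1 the log2 fold change without iron was -6.19 for con-6, -5.61 for con-10, -3.16 for con-8, -1.84 for eas and -1.17 for con-13. Against wild type, con-6 was called higher in ve-1 in standard medium and none of the 5 was called in iron-free medium. Their part in the results below was not tested. A lower share of one kind of cell and less RNA per cell cannot be told apart in such bulk samples.

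**Figure D1:**
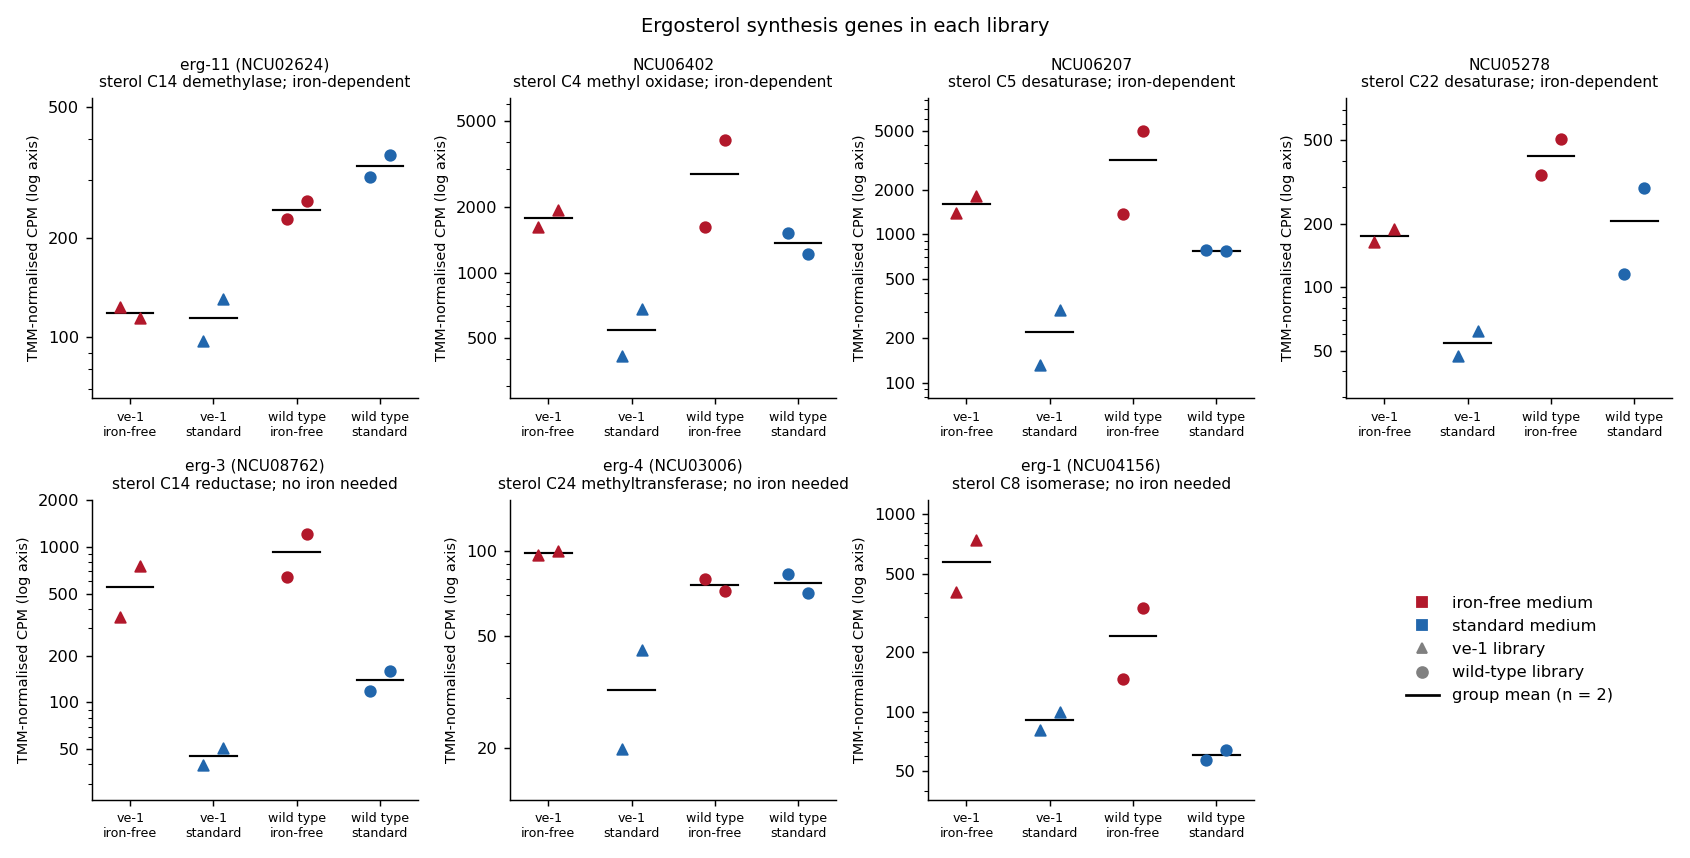
TMM-normalised CPM (log axis) of the 7 ergosterol genes in each of the 8 libraries; red marks iron-free and blue standard medium, triangles ve-1 and circles wild type, and black lines the mean of 2 libraries. Both iron-free libraries lie above both standard libraries of their genotype for NCU06402, NCU06207, NCU05278, erg-3 and erg-1, but not for erg-11, which has its highest level, 356 CPM, in wild-type standard medium.

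Without iron, 6 of the 7 genes rose and erg-11 did not, when the effect of the medium was averaged over both genotypes. Background for this count was 12.3% of all tested genes called higher. The rise was 8.98-fold for erg-3, 5.44-fold for the C5 desaturase NCU06207, 5.01-fold for erg-1, 2.61-fold for the C4 oxidase NCU06402, 2.57-fold for the C22 desaturase NCU05278 and 1.74-fold for erg-4. All 3 genes of steps without iron and 3 of the 4 genes of the iron-dependent steps were therefore called higher. The median log2 fold change was 2.32 over the 3 steps without iron, 1.37 over the 4 iron-dependent steps and 0.03 over all tested genes.

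Erg-3, whose product reduces the double bond left by C14 demethylation, rose most. It was at 354 and 746 CPM in ve-1 iron-free libraries, against 39.5 and 51.1 CPM in ve-1 standard libraries. In wild type it was at 639 and 1206 CPM in iron-free libraries, against 118 and 159 CPM in standard ones. Every iron-free library was thus above every standard library of either genotype, which held for 7.27% of all tested genes. Its averaged log2 fold change was 3.17 (SE 0.34, edgeR adjusted p = 0.00245), and 0.197% of tested genes had a larger one. The call was made in both genotypes, with log2 fold changes of 3.60 (SE 0.49) in ve-1 and 2.73 (SE 0.47) in wild type. The ve-1 value was 2.97 without culture 2 of ve-1 iron-free.

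Erg-1, whose product shifts the ring double bond from C8 to C7, was at 403 and 743 CPM in ve-1 iron-free libraries, against 81.0 and 100.2 CPM in ve-1 standard ones. In wild type it was at 146 and 336 CPM in iron-free libraries and 57.2 and 64.2 CPM in standard ones. Here too all 4 iron-free libraries were above all 4 standard ones. The averaged log2 fold change was 2.32 (SE 0.33, edgeR adjusted p = 0.00478). Erg-1 and erg-3 were the 2 members called higher in both genotypes. The wild-type log2 fold change of erg-1 was 1.99 (adjusted p = 0.0481), and 1.36 (adjusted p = 0.15) without culture 2 of wild-type iron-free.

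Erg-4, which methylates the side chain, had different values in the 2 genotypes. In ve-1 it was at 97.4 and 100.6 CPM in iron-free libraries, against 19.8 and 44.4 CPM in standard ones. In wild type it was at 79.5 and 72.1 CPM in iron-free libraries and 82.9 and 70.9 CPM in standard ones. The mutant libraries do not overlap between media, whereas those of wild type do. The log2 fold change was 1.63 in ve-1 (SE 0.36, edgeR adjusted p = 0.0209) and -0.02 in wild type (95% interval -0.83 to 0.79), and the averaged one was 0.80 (SE 0.25, adjusted p = 0.0475). Without culture 2 of ve-1 standard the ve-1 value was 2.33, and without culture 1 of that group it was 1.16.

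Among the iron-dependent steps the C5 desaturase NCU06207, which makes the second double bond of the sterol B ring, moved most. It was at 1392 and 1803 CPM in ve-1 iron-free libraries, against 132 and 306 CPM in ve-1 standard ones. In wild type it was at 1364 and 4942 CPM in iron-free libraries, against 782 and 768 CPM in standard ones. The iron-free libraries were all above the standard ones, and the second wild-type culture was far above the other 3. The averaged log2 fold change was 2.44 (SE 0.46, edgeR adjusted p = 0.0108). In ve-1 alone it was 2.87 (adjusted p = 0.0247) and in wild type alone 2.02 (SE 0.64, adjusted p = 0.101, not called). Without culture 2 of wild-type iron-free the wild-type value was 0.90, and without culture 1 it was 2.72. Without culture 2 of ve-1 standard the ve-1 value was 3.60, and without culture 1 of that group it was 2.38.

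The C4 methyl oxidase NCU06402, which starts the removal of the methyl groups at C4, had the same shape with smaller steps. It was at 1633 and 1939 CPM in ve-1 iron-free libraries, against 413 and 675 CPM in ve-1 standard ones, and at 1617 and 4088 CPM in wild-type iron-free libraries, against 1523 and 1222 CPM in wild-type standard ones. Its log2 fold change was 1.71 in ve-1 (SE 0.47, edgeR adjusted p = 0.0396) and 1.06 in wild type (SE 0.46, adjusted p = 0.206). In wild type the first iron-free culture, at 1617 CPM, was close to the first standard culture. The wild-type log2 fold change was 0.33 without culture 2 of wild-type iron-free.

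The C22 desaturase NCU05278, a P450 that acts on the side chain, was at 164 and 189 CPM in ve-1 iron-free libraries, against 46.8 and 62.1 CPM in ve-1 standard ones. Wild type had 341 and 505 CPM in iron-free libraries, against 116 and 297 CPM in standard ones. The groups do not overlap within either genotype, but the standard wild-type libraries reach the level of the iron-free mutant ones. Its log2 fold change was 1.69 in ve-1 (SE 0.46, edgeR adjusted p = 0.0374) and 1.04 in wild type (SE 0.45, adjusted p = 0.198). Without culture 2 of wild-type standard the wild-type value was 1.87, and without culture 1 of that group it was 0.51.

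The P450 gene erg-11 was the member not called in either genotype or in the average of both. It was at 123 and 114 CPM in ve-1 iron-free libraries and 97.9 and 131 CPM in ve-1 standard ones. Wild type had 228 and 258 CPM in iron-free libraries and 307 and 356 CPM in standard ones. The mutant libraries overlap between media, and in wild type both iron-free libraries are below both standard ones, as for 29.2% of all tested genes. The averaged log2 fold change was -0.20, with a 95% interval of -0.59 to 0.20 (edgeR adjusted p = 0.417), so that a rise of more than 1.15-fold lies outside the interval. In wild type alone it was -0.45 (SE 0.24, adjusted p = 0.285). With total-count scaling, which puts the median of all genes at 0.55 in wild type, against 0.03 with TMM, the wild-type value was 0.07 and the averaged one 0.21.

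**Figure D2:**
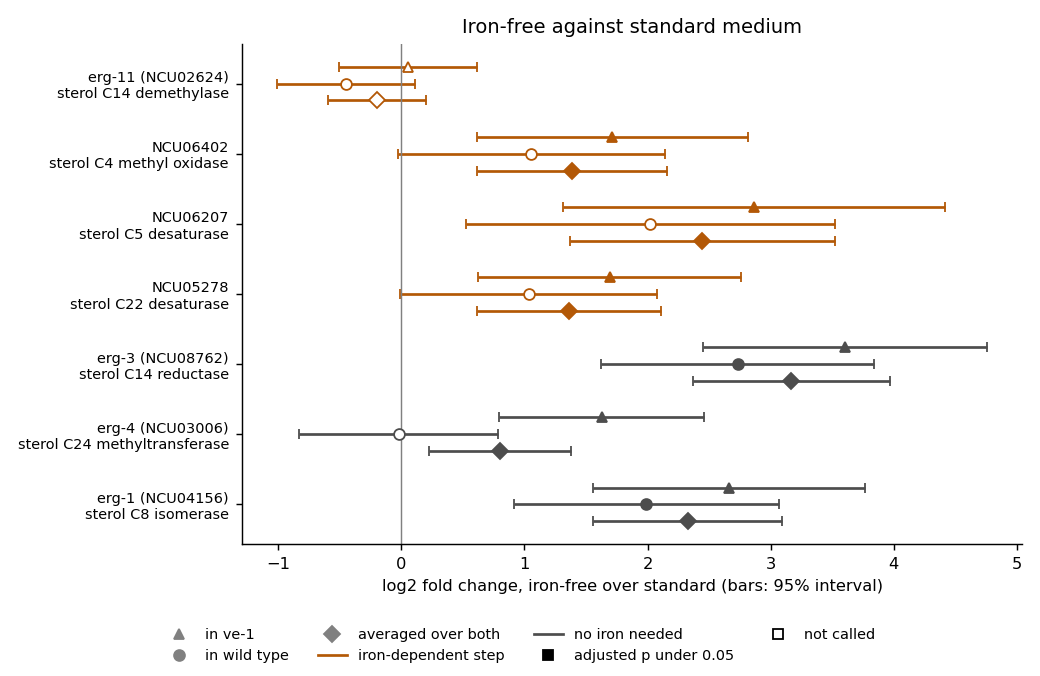
Log2 fold changes of iron-free over standard medium in ve-1 (triangles), wild type (circles) and averaged over both (diamonds), with 95% intervals; brown marks iron-dependent steps and grey the others, and filled symbols an adjusted p under 0.05. Filled symbols lie right of zero for 6 genes, led by erg-3 at 3.60 in ve-1, and all 3 symbols of erg-11 are open and between -0.45 and 0.06.

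Counted by genotype, 6 of the 7 genes were called higher without iron in ve-1, where 10.9% of all tested genes were, and 2 of the 7 in wild type, where 1.47% were. None was called lower, against 11.6% of all genes in ve-1 and 5.10% in wild type. Iron-free libraries lay above the standard ones without overlap for 6 members in ve-1 and 5 in wild type, against 34.8% and 28.3% of all genes. That the response differs between genotypes was tested as an interaction, in which 0 of 7 members and 0.246% of all genes were called by edgeR. DESeq2 also called 0 members, and 583 of all genes. With edgeR 1 member, erg-4, had an unadjusted p under 0.05, as did 20.3% of all genes. Its log2 difference was 1.65 (SE 0.49, edgeR adjusted p = 0.14). All 7 interaction values were positive, with a median of 0.67 against 0.07 for all genes. The 7 values come from the same 8 libraries. Without culture 1 of wild-type iron-free they ran from 0.10 for NCU06402 to 1.68 for erg-4. Without culture 2 of that group they ran from 0.51 for erg-11 to 1.96 for NCU06207. Without culture 2 of wild-type standard NCU05278 was at -0.17.

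The averaged calls of erg-3, erg-1 and NCU06207 held in all 15 other fits tried. Those of NCU06402, NCU05278 and erg-4 were lost in some fits with a culture left out. Such a fit has a group with a single library, and fewer of all tested genes were called in each too. The averaged log2 fold changes ran from 1.02 to 1.67 for NCU06402, 1.11 to 1.78 for NCU05278 and 0.57 to 1.15 for erg-4. With the replicate number as a block edgeR called 5 members, erg-4 having an adjusted p of 0.0564. Of all tested genes 2083 were called with that block, against 2265 without it. In ve-1 alone, calls of members were lost when any ve-1 culture was left out, and fewer of all tested genes were called as well. The log2 fold changes of the 6 members called there stayed positive. They ran from 1.16 for erg-4 to 4.05 for erg-3. In wild type alone, fewer of all tested genes were likewise called when any wild-type culture was left out. With a library left out the log2 fold change ran from 2.29 to 3.17 for erg-3 and from 1.36 to 2.51 for erg-1. The call of erg-3 or erg-1 was lost in several of these fits. With a block for replicate within genotype 1 member was called in wild type. That block called 326 of all tested genes, against 533 without it.

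Ratios between 2 genes of the same library do not depend on how libraries are scaled, and they set erg-11 against the steps that follow it. The CPM of erg-3 per CPM of erg-11 was 2.86 and 6.54 in ve-1 iron-free libraries, against 0.403 and 0.392 in ve-1 standard ones. In wild type it was 2.81 and 4.67 in iron-free libraries, against 0.385 and 0.448 in standard ones. The 4 standard libraries of both genotypes thus lay within a narrow band, and the 4 iron-free libraries were all above it. For NCU06207 per erg-11 the ratio was 11.3 and 15.8 in ve-1 iron-free, 1.35 and 2.34 in ve-1 standard, 5.99 and 19.1 in wild-type iron-free and 2.55 and 2.16 in wild-type standard libraries. Erg-1 per erg-11 separated the media within each genotype and the genotypes within each medium: it was 3.26 and 6.51 in ve-1 iron-free, 0.828 and 0.767 in ve-1 standard, 0.643 and 1.30 in wild-type iron-free and 0.187 and 0.180 in wild-type standard libraries.

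The 2 classes of step were also set against each other as a whole. The mean log2 CPM of the 4 iron-dependent genes minus that of the other 3 was 0.95 and 0.45 in ve-1 iron-free libraries, against 1.66 and 1.73 in ve-1 standard ones. In wild type it was 1.72 and 2.05 in iron-free libraries, against 2.46 and 2.64 in standard ones. The iron-dependent steps thus lost ground without iron by 0.99 in ve-1 and 0.67 in wild type on the log2 scale, where the SD within groups was 0.22. No p is given for this score, since its members were chosen. It depends on single genes: without erg-3 the change was -0.54 in ve-1 and -0.08 in wild type, and without erg-11 it was -0.47 in ve-1 and -0.24 in wild type. The range inside each class was wide, from -0.20 for erg-11 to 2.44 for NCU06207 among the iron-dependent steps and from 0.80 for erg-4 to 3.17 for erg-3 among the others, as averaged log2 fold changes. The haem enzymes and the non-haem ones do not form separate blocks either, since the P450 NCU05278 (1.36) lay beside the C4 oxidase (1.38).

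**Figure D3:**
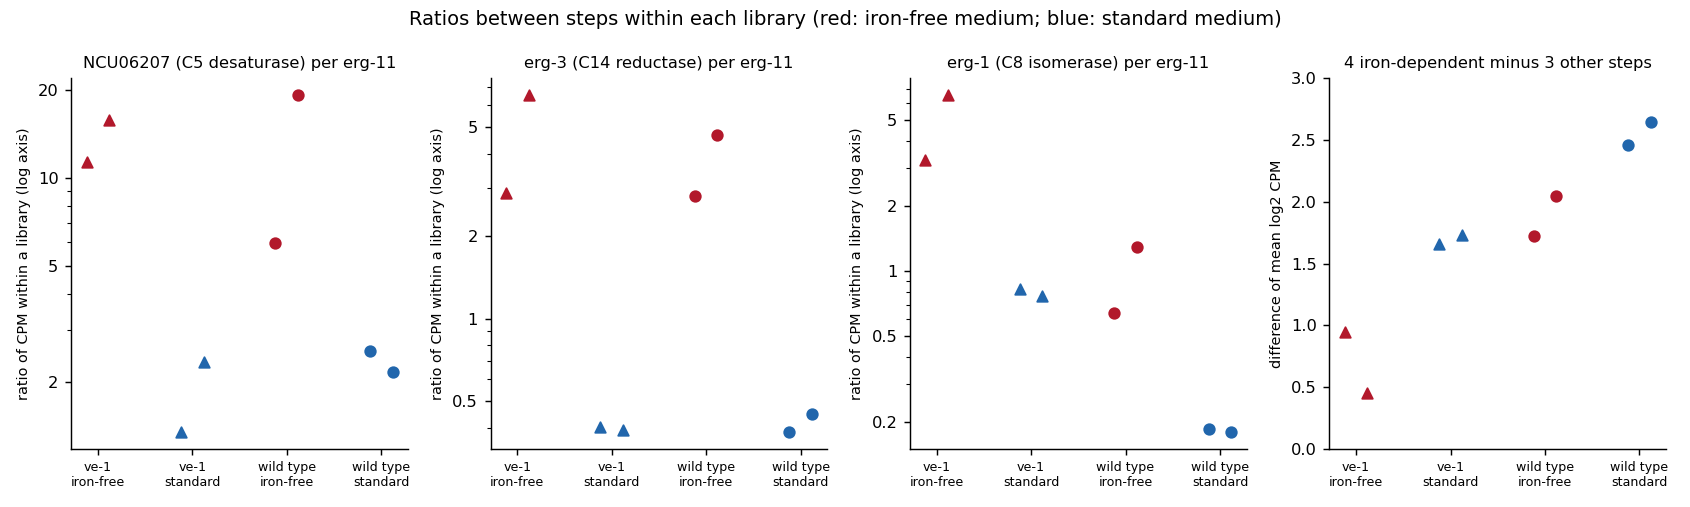
Ratios of CPM between 2 genes within each library (first 3 panels, log axes) and the mean log2 CPM of 4 iron-dependent minus 3 other steps (last panel), for 2 libraries in each group. Erg-3 per erg-11 is 0.385 to 0.448 in all standard libraries and 2.81 to 6.54 in all iron-free ones, and the class difference is lowest, at 0.45 and 0.95, in ve-1 iron-free medium.

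In ve-1, part of the pathway was lower in standard medium. Of the 7 genes 4 fell, where 15.3% of all tested genes were called lower: erg-11, the C22 desaturase NCU05278, erg-3 and erg-4. Iron-dependent steps and the others had 2 each. The libraries of ve-1 were below those of wild type for 6 of the 7 genes, as they were for 38.6% of all tested genes, and above them for erg-1, as for 35.8%. The median log2 fold change was -1.54 over the 7 members and -0.03 over all tested genes.

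Erg-11 was at 97.9 and 131 CPM in ve-1, against 307 and 356 CPM in wild type, a log2 fold change of -1.54 (SE 0.25, edgeR adjusted p = 0.00805) or 2.90-fold lower. NCU05278 was at 46.8 and 62.1 CPM in ve-1, against 116 and 297 CPM in wild type (log2 fold change -1.92, SE 0.46, edgeR adjusted p = 0.0236). Without culture 2 of wild-type standard it was -1.09 (adjusted p = 0.11), and the call was also lost without either ve-1 standard culture. Both P450 genes of the pathway were thus lower, with no overlap between genotypes. Erg-3 was at 39.5 and 51.1 CPM in ve-1, against 118 and 159 CPM in wild type (log2 fold change -1.61, edgeR adjusted p = 0.0384), and erg-4 at 19.8 and 44.4 CPM in ve-1, against 82.9 and 70.9 CPM in wild type (-1.26, adjusted p = 0.0371). The di-iron enzymes had values of similar size without passing the threshold, with -1.82 (SE 0.64, adjusted p = 0.0697) for the C5 desaturase NCU06207 and -1.33 (SE 0.47, adjusted p = 0.0694) for the C4 oxidase NCU06402. Without culture 2 of ve-1 standard the value of erg-4 was -1.96 and that of NCU06207 -2.56. Without culture 1 of that group they were -0.79 and -1.34. With any 1 library left out the value of erg-3 ran from -1.82 to -1.39.

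Erg-1 was the one member with a positive value, at 81.0 and 100.2 CPM in ve-1 and 57.2 and 64.2 CPM in wild type. The log2 fold change was 0.58, with a 95% interval of -0.47 to 1.62 (edgeR adjusted p = 0.356). The ratio of erg-1 to erg-3 CPM in a library was 2.05 and 1.96 in ve-1 standard libraries, against 0.484 and 0.403 in wild-type ones. In iron-free medium the same ratio was 1.14 and 0.997 in ve-1, against 0.229 and 0.278 in wild type. The ratio was therefore higher in ve-1 within both media, and higher in standard than in iron-free medium within both genotypes.

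**Figure D4:**
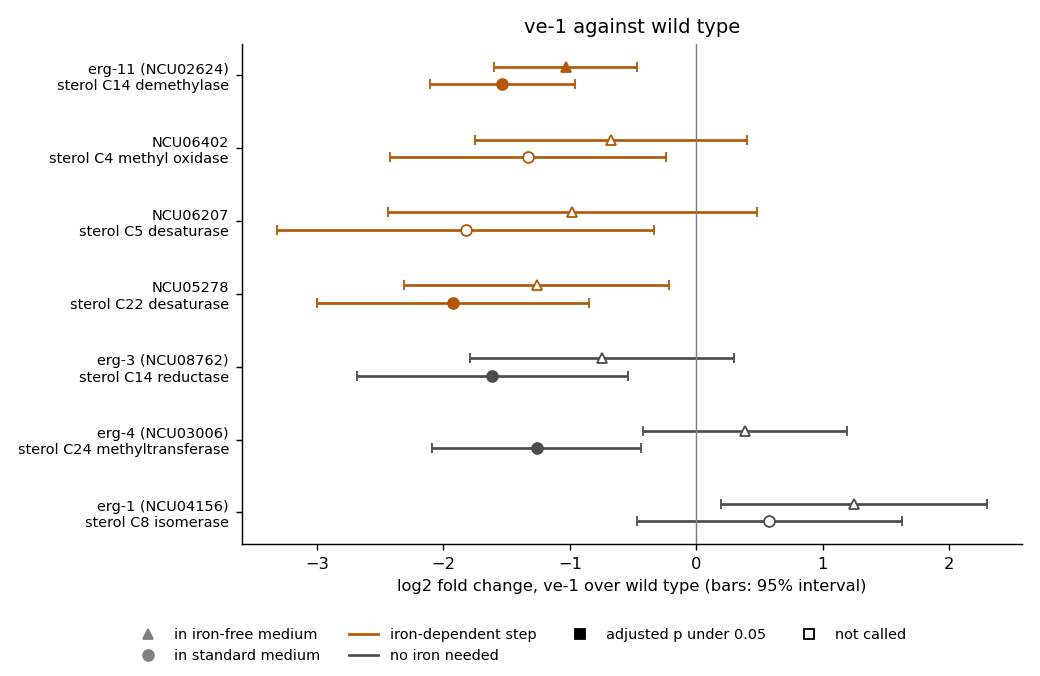
Log2 fold changes of ve-1 over wild type in iron-free (triangles) and standard medium (circles), with 95% intervals; colours and filling are as for the medium effect. In standard medium 6 genes lie between -1.92 and -1.26 and erg-1 at 0.58, and in iron-free medium the values run from -1.26 for NCU05278 to 1.25 for erg-1.

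In iron-free medium 1 of the 7 genes, erg-11, was called lower in ve-1, where 10.1% of all tested genes were. It was at 123 and 114 CPM in ve-1, against 228 and 258 CPM in wild type (log2 fold change -1.03, SE 0.24, edgeR adjusted p = 0.0277). Its level in ve-1 was thus below that of wild type in both media. NCU05278 was at -1.26 and erg-1 at 1.25, with no overlap between the genotypes (nor was there for 29.8% of genes below and 31.3% above), and neither was called (edgeR adjusted p = 0.0921 and 0.094). For erg-3, NCU06402 and NCU06207 the libraries overlapped, with log2 fold changes of -0.75, -0.68 and -0.98. Both mutant cultures exceeded both wild-type ones for erg-4 in this medium, the reverse of the order with iron, with a log2 fold change of 0.39 (95% interval -0.42 to 1.19).

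In standard medium DESeq2 called 6 members, and 2762 of all tested genes against 2258 with edgeR. With any standard culture left out, fewer members were called by edgeR, and fewer of all tested genes as well. The log2 fold change of erg-11 ran from -1.76 to -1.34 in these fits. The call of erg-11 was lost only without culture 1 of ve-1 standard, where the value was -1.34. In iron-free medium the call of erg-11 was lost when any 1 of the 4 cultures compared was left out. Its log2 fold change was then -1.12 to -0.97, and fewer of all tested genes were called as well. Leaving out culture 2 of wild-type iron-free had erg-1 called higher instead, where 8.36% of all genes were called higher with all cultures. With the replicate number as a block, and with DESeq2, 3 members were called in iron-free medium, erg-11 and NCU05278 lower and erg-1 higher. Of all tested genes the block called 1303 and DESeq2 2033, against 1500 with edgeR and no block.

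**Figure D5:**
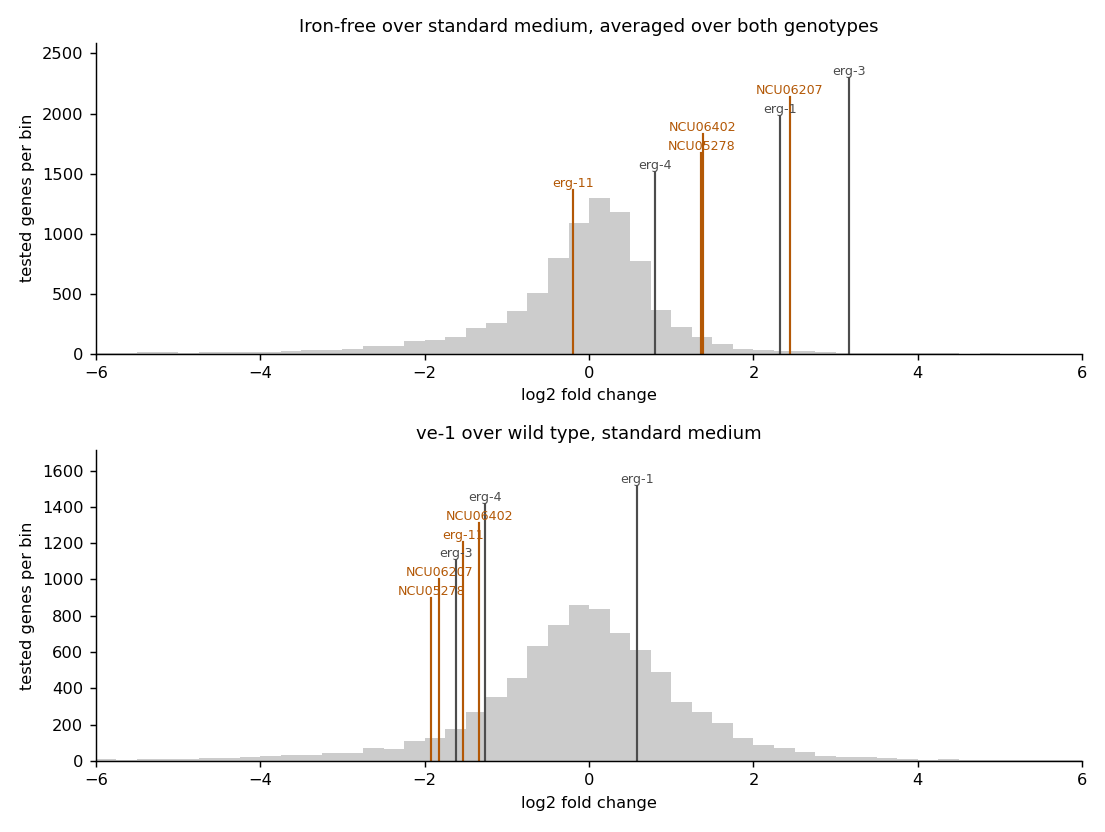
Number of tested genes per bin of log2 fold change (grey bars, 0.25 wide), with the 7 members as lines (brown for iron-dependent steps, dark grey for the others), for the medium effect averaged over genotypes (top) and for ve-1 over wild type in standard medium (bottom). Erg-3 has 0.197% of genes above it in the top panel, erg-11 lies inside the bulk, and in the bottom panel 6 members lie left of the centre of all genes and erg-1 right of it.

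Levels of different genes were compared per kilobase of gene span. In every group the C4 oxidase NCU06402 was highest and the C5 desaturase NCU06207 next, though their libraries overlapped in wild-type iron-free medium. The libraries of NCU06207 also overlapped those of the gene ranked below it in 2 groups, erg-3 in wild-type iron-free and erg-1 in ve-1 standard medium. Erg-11 ranked 3 of 7 in wild-type standard medium, at 126 CPM per kb, and 6 of 7 in wild-type iron-free medium, at 92.8. In ve-1 it ranked 7 of 7 without iron, at 45.3 CPM per kb, and 4 of 7 with iron, at 43.6. Its libraries overlapped those of erg-1, ranked just above it, in wild-type iron-free and in ve-1 standard medium. Erg-1 ranked 7 of 7 in wild-type standard medium, at 35.7 CPM per kb, but 3 of 7 in both ve-1 groups, at 337 without iron and 53.4 with it, where its libraries overlapped those of a neighbour in rank. Libraries of the C22 desaturase NCU05278 and erg-3 overlapped in both standard groups, and without iron erg-3 was above NCU05278 in each genotype, at 289 against 63.3 CPM per kb in ve-1 and at 485 against 152 in wild type. Summed over the 7 genes, the pathway took 0.483% and 0.688% of tested counts in ve-1 iron-free, 0.0815% and 0.131% in ve-1 standard, 0.555% and 1.12% in wild-type iron-free and 0.235% and 0.227% in wild-type standard libraries. NCU06207 and NCU06402 carried most of that sum in each library.

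The list of other genes, taken by symbol, held sah-2 and ccg-8 as regulators and cyp450-31 as another P450 gene. A part of cyp450-31 in ergosterol synthesis was not tested. The gene sah-2 (NCU04731) encodes the N. crassa relative of the sterol regulatory element-binding proteins, which switch on sterol genes in many eukaryotes. Its transcript was at 439 and 354 CPM in ve-1 iron-free, 318 and 407 in ve-1 standard, 505 and 1102 in wild-type iron-free and 769 and 985 in wild-type standard libraries. In ve-1 it fell in standard medium (log2 fold change -1.28, edgeR adjusted p = 0.0493), a call lost in 6 of 8 fits with a library left out. For the medium its averaged log2 fold change was 0.00 (SE 0.28). The gene ccg-8 (NCU09686), a clock-controlled gene whose product is known in N. crassa to affect azole resistance, fell without iron. It was at 114 and 79.9 CPM in ve-1 iron-free libraries, against 277 and 349 CPM in ve-1 standard ones, and at 77.1 and 150.2 CPM in wild-type iron-free libraries, against 411 and 311 CPM in wild-type standard ones. The averaged log2 fold change was -1.68 (SE 0.27, edgeR adjusted p = 0.00681), and the call held with any 1 library left out. The P450 gene cyp450-31 had an averaged log2 fold change of -0.23 (SE 0.42, edgeR adjusted p = 0.712) for the medium. In ve-1 it fell in standard medium (log2 fold change -2.08, SE 0.62, edgeR adjusted p = 0.0449), a call lost in 5 of 8 fits with a library left out.

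Genes with the most similar pattern were sought by Pearson's r over the 8 libraries between a gene's log2 CPM and the mean centred profile of the 7 members. The libraries fall into 4 groups, so r is a description of likeness and carries no p. Among the members r was 0.99 for NCU06207, 0.97 for both erg-3 and NCU06402, 0.91 for NCU05278, 0.83 for erg-4, 0.67 for erg-1 and 0.38 for erg-11. Each member is part of that profile, and members with a wide range weigh more in it. The range was 5.22 log2 units for NCU06207 and 1.86 for erg-11. Values of r for members and for other genes are therefore not on equal terms. Of 6477 other genes that varied at least 2-fold, 2100 had a higher r than erg-11. The closest were NCU03023 (0.985) and NCU09117 (0.979). Those with a symbol were the copper metallothionein gene cmt (0.97), nst-2 and arg-4 (both 0.96), tca-17 (0.96) and the kinase gene stk-46 (0.95).

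The authors' deposited tables list a gene where their adjusted p is under 0.05. For the medium in ve-1 the authors' deposited table lists 6 members, all higher, with erg-11 not listed, and for wild type it lists erg-3, erg-1 and NCU06207, all higher. For ve-1 against wild type the authors' deposited table lists 6 members, all lower, in standard medium, erg-1 being the one not listed. In iron-free medium the authors' deposited table lists erg-11 (log2 fold change -1.03) and NCU05278 (-1.24), both lower. Higher and lower together, the authors' deposited tables list 1837 genes for the medium in ve-1 and 1004 in wild type. For ve-1 against wild type they list 2197 genes in standard and 1548 in iron-free medium.

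Counting could blur 2 of the 7 genes, since the strand setting of the counts is not given. NCU06402 shares 206 bases with NCU06401, which had at most 5.80% of the member's count in any library. NCU06207 shares 179 bases with NCU06209. That neighbour had 12.1% and 6.85% of the member's count in ve-1 iron-free, 179% and 76.9% in ve-1 standard, 5.42% and 2.03% in wild-type iron-free and 36.3% and 21.4% in wild-type standard libraries. The neighbour's own counts, 820 to 1967, varied far less than the 947 to 42317 of NCU06207.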

How the data were processed

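Poly(A) libraries (KAPA stranded kit, per the labels' protocols) from 8 cultures in 4 groups were analysed. The authors deposited unnormalised counts of reads for each gene. The tools listed, per the submitters' processing notes, are FastQC, Trim Galore, STAR and DESeq2, with no version or role. For the counting tool, strand setting, build and annotation the entry is "not given in the sources used here". Deposited tables of the authors' own hold mean normalised counts (a signal averaged over replicates), log2 fold changes and adjusted p-values for 4 comparisons. They were used only for which members and how many genes they list, and for the log2 fold changes credited to them.

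Counts were fitted in R 4.3.3 with edgeR 4.0.16 (filterByExpr, minimum count 10 and total 15; TMM; robust quasi-likelihood; all 8 libraries as 4 groups). Tests are two-sided, and 95% intervals use the moderated degrees of freedom. The averaged effect of the medium is the mean of the effects in both genotypes. DESeq2 1.42.0, other scalings, no filter, blocks and left-out libraries were alternatives. Scripts were tested on simulated data. Symbols, gene spans and overlaps come from RefSeq for assembly NC12, which holds all 7 members. It gives erg-1, erg-3 and erg-4 as symbols, and the name erg-11 and the enzyme of each locus come from the member list. No coordinates are printed, since the authors' build is unknown. Members, lists and rules for named genes were chosen with earlier results of these data known. The rule took all 7 members, regulators and another P450 gene by symbol, and the 5 closest patterns with a symbol plus the 2 closest of any kind. Pairing of libraries by replicate number was not settled. Deviations of same-numbered libraries correlated weakly over all genes, at -0.05 to 0.14. Culture 2 was above culture 1 in all 4 groups for erg-3, erg-1 and NCU05278, but not for erg-11, NCU06402, NCU06207 or erg-4. Comparisons that need protein sequence (nearest relatives, haem motifs) were not run here.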

Additional observations from a re-analysis of the deposited data

Results flagged for a closer look

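The C24 methyltransferase gene erg-4 had opposite orders in the 2 media: both mutant cultures were below both wild-type cultures in standard medium and above them in iron-free medium. Its levels were 19.8 and 44.4 CPM in ve-1 against 82.9 and 70.9 in wild type with iron, and 97.4 and 100.6 CPM in ve-1 against 79.5 and 72.1 in wild type without it. The difference of the 2 effects was 1.65 on the log2 scale (SE 0.49). It did not pass edgeR's interaction test after Benjamini-Hochberg adjustment (adjusted p = 0.14), and over the 15 alternatives the adjusted p ran from 0.0622 to 0.355.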

How the results depend on the processing

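With 2 libraries in a group, most single calls near the threshold depend on 1 library. With a library left out, the number of members called ran from 0 to 2 for the medium in wild type, 0 to 6 in ve-1, 3 to 5 averaged, 0 to 2 for ve-1 in iron-free and 0 to 5 in standard medium. The number of all tested genes called also varied widely over these fits, so the ranges do not describe the members alone. In the same fits the class difference without iron ran from -0.83 to -0.50 in wild type and -1.24 to -0.75 in ve-1. For the medium in wild type, total-count scaling called 5 members, the compared libraries alone 0, and the replicate block within genotype 1. Over all genes these fits called 1290, 125 and 326, in that order, against 533 with the settings used above. For ve-1 in iron-free medium, total-count scaling called 2 members, DESeq2 3, the compared libraries alone 0 and the replicate block 3. Over all genes they called 1515, 2033, 940 and 1303, in that order, against 1500. The class difference in ve-1 was -1.71 with medians; in ve-1 and wild type it was -0.47 and -0.24 without erg-11, -1.44 and -0.97 without NCU06207, -0.54 and -0.082 without erg-3, and -1.43 in both without erg-4. The cause was not tested. Signs turned for values that were not called: erg-4 in wild type between media (0.0060 with DESeq2 size factors, 0.0088 with the DESeq2 test, 0.51 with total-count and 0.085 with upper-quartile scaling, -0.13 to 0.14 with a library left out), erg-11 with total-count scaling (0.066 in wild type, 0.21 averaged) and without ve-1 standard replicate 1 (-0.14 in ve-1, range to 0.29 over left-out libraries), NCU05278 in the interaction (-0.17 without wild-type standard replicate 2, range to 1.19), and NCU06402 and NCU06207 in ve-1 against wild type in iron-free medium (0.10 and 0.19 without wild-type iron-free replicate 2, ranges from -1.19 and -1.63). In all, 542 of the single-gene fits kept sign and side of the threshold, 68 lost and 22 gained a call, and 12 changed sign. Whether the replicate numbers pair the libraries was not settled, and the block is given for its count alone.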
